A study of Mus musculus with 23 samples.

Results

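The Sall genes are the 4 mouse members of the spalt-like family, Sall4, Sall1, Sall2 and Sall3, taken by symbol from the table of Inv1DelCTCF and Inv1. That table lists 34682 genes, and 11218 of them, all 4 Sall genes included, have an adjusted p. RNA was sequenced from distal forelimbs micro-dissected from mouse embryos at E11.5. The comparison described here sets 2 libraries of Inv1DelCTCF against 3 libraries of Inv1. Inv1 is the first of a set of engineered inversions that move a limb enhancer cluster from the Epha4 domain on chromosome 1 into a gene-dense stretch, and Inv1DelCTCF by its name adds a deletion of a CTCF site. Both groups therefore carry the inversion, both are labelled only as mutant, and the labels give G4 ESC as the cell type, the embryonic stem cell line from which mutants of this kind are made. The 4 genes lie on chromosomes 2 (Sall4), 8 (Sall1), 14 (Sall2) and 18 (Sall3), away from the inverted chromosome 1. None of the 4 Sall genes is in the tables of Inv1, Inv2, Inv3 or Inv4 against the 5 wild type libraries, so their levels in wild type limbs were not analysed here.

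Spalt-like genes encode nuclear zinc finger proteins that repress or activate transcription. Their fingers come as pairs spread along the protein, and a short stretch at the start of Sall1 and Sall4 recruits NuRD, a complex that couples chromatin remodelling to histone deacetylation. In the limb bud Sall4 acts with the T-box factor Tbx5 and with Gli3 in the formation of digits and anterior skeletal elements, and Sall1 and Sall3 act together in distal limb patterning. In people, loss of 1 SALL4 copy causes Duane-radial ray (Okihiro) syndrome and changes in SALL1 cause Townes-Brocks syndrome, both with thumb malformations. Sall4 is also a factor of embryonic stem cells, and its expression declines as embryonic tissues mature.

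Reads of the family members can be told apart over nearly their whole length. The longest identical run between the longest transcripts of Sall4 and Sall1 is 21 bases, that of Sall4 and Sall2 is 15 bases, and that of Sall4 and Sall3 is 27 bases, all inside coding sequence. No stretch of 50 bases of the longest Sall1, Sall2 or Sall3 transcript recurs in a transcript of another gene on either strand. The runs of Sall4 with Sall1 and Sall2 are shown in capitals within 60 bases, and the longer run with Sall3 is not shown. Only exact runs were searched, and alignment with mismatches was not examined. The sequences are from GENCODE M21 transcripts of GRCm38, 5′ to 3′ on the coding (minus) strand, at chr2:168752509-168752568 for Sall4, chr8:89029999-89030058 for Sall1 and chr14:52314544-52314603 for Sall2.
Sall4: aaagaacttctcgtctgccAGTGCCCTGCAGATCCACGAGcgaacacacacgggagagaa
Sall1: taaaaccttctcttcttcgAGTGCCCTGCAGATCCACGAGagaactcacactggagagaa
Sall2: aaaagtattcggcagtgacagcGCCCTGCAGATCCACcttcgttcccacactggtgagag
In GRCm38 an antisense transcript, Gm14261, overlaps the start of Sall4, and 244 of the 5024 stretches of 50 bases in the longest Sall4 transcript (4.86%) recur in it on the opposite strand. The sources used here do not say whether counting used strand, so in that stretch reads of Sall4 and of Gm14261 cannot be told apart.

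The files give a mean over the 5 libraries for each gene, a log2 fold change and its standard error (SE), and no value per library. The level in each group was therefore rebuilt from that mean and the log2 change, and variation between libraries enters only by way of the SE. Normalised counts are reads divided by a size factor for the library, and the means of all genes add up to 3.02e+07. The depth of single libraries is unknown. The labels do not say whether libraries came from different embryos or litters. Each p here therefore refers to these 5 libraries and not to a known number of embryos. In bulk tissue, fewer cells that express a gene and less RNA per cell cannot be told apart.

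Sall4 had the lowest count of the 4 genes and the lowest ratio of Inv1DelCTCF to Inv1. Its rebuilt level was 454 normalised counts in Inv1DelCTCF limbs, against 816 in Inv1 limbs. Sall3 had 1107 in Inv1DelCTCF limbs and 1783 in Inv1 limbs. These 2 genes were also the ones with the widest relative gap between the groups. Sall2, a broadly expressed member of the family, had 3970 normalised counts in Inv1DelCTCF limbs, against 4206 in Inv1 limbs, and Sall1 had 6529 in Inv1DelCTCF limbs, against 7563 in Inv1 limbs. All 4 levels were thus below those in Inv1, though that of Sall2 turned to slightly above once a trend with base composition was subtracted, as described below.

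Levels of different genes were compared per kb of the longest annotated transcript. On this scale the order was Sall1, Sall2, Sall3 and Sall4 in both groups. In Inv1DelCTCF limbs Sall1 stood at 1240 ± 92.5, Sall2 at 771 ± 37.8, Sall3 at 156 ± 41.9 and Sall4 at 89.5 ± 12.5 normalised counts per kb (n = 2). In Inv1 limbs Sall1 stood at 1436 ± 107, Sall2 at 817 ± 39.9, Sall3 at 252 ± 67.3 and Sall4 at 161 ± 21.9 normalised counts per kb (n = 3). The ± values are the SD of a library that the SE of the gene implies, not an SD of measured library values. Sall3 and Sall4 are the neighbours in this order that lie closest to each other relative to that spread, and their levels were not tested against each other. The Sall4 level per kb was 7.22% of the Sall1 level in Inv1DelCTCF limbs and 11.2% of it in Inv1 limbs. Against Sall3, its neighbour in that order, the Sall4 level was 57.3% in Inv1DelCTCF limbs and 63.9% in Inv1 limbs. Of the summed level of the 4 genes per kb, Sall4 made up 3.97% in Inv1DelCTCF limbs and 6.03% in Inv1 limbs. Among 10940 genes with a length, 86.9% had a lower level per kb than Sall1 in Inv1 limbs, 74.3% a lower one than Sall2, 37.8% than Sall3 and 25.7% than Sall4. The place of Sall4 in that order depends on the length used. Per kb of the median annotated transcript, Sall4 came to 1056 normalised counts per kb in Inv1 limbs, above Sall2 at 848 and Sall3 at 315, since GENCODE lists several short Sall4 transcripts.

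**Figure D1:**
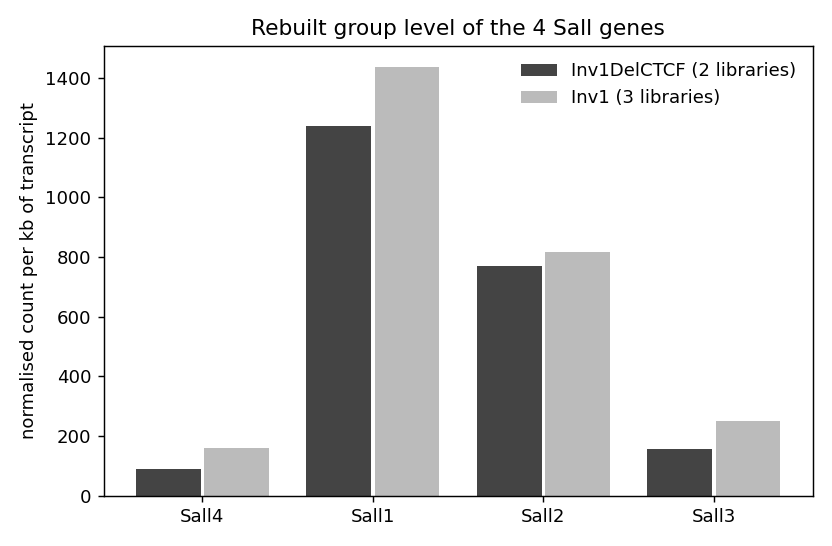
Bars give the rebuilt level of each Sall gene, in normalised counts per kb of the longest transcript, in Inv1DelCTCF (dark, 2 libraries) and Inv1 (light, 3 libraries), without error bars because the files hold no value per library. Sall4 has the lowest bars, at 89.5 in Inv1DelCTCF and 161 in Inv1, and Sall1 the highest, at 1240 in Inv1DelCTCF and 1436 in Inv1.

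Sall4 was lower in Inv1DelCTCF limbs, at 0.557 of its Inv1 level (95% interval 0.435 to 0.713). Its log2 change, given here and below as Inv1DelCTCF over Inv1, was -0.85 in the authors' deposited table (SE 0.182, Wald test of DESeq2, adjusted p = 0.000299). Whether the deletion itself or another difference between the groups of libraries set this fall was not tested. Calls were made at a deposited adjusted p under 0.05, and 11.7% of the genes with an adjusted p were called, 7.89% lower and 3.81% higher in Inv1DelCTCF. One of the 4 Sall genes was called. Sall4 ranked 129 by p among the 11218 genes of the authors' deposited table. By size its fall ranked 7 among the 885 genes called lower in that table. The 6 genes called lower with a larger fall included Trim71, a translational repressor of early development, at -1.04 (adjusted p = 7.80e-05, SE 0.207) in the authors' deposited table.

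Sall1 did not pass the test. Its log2 change was -0.21 (SE 0.098, unadjusted p = 0.0307, adjusted p = 0.142) in the authors' deposited table, which is a ratio of 0.863 with a 95% interval of 0.756 to 0.986. Sall2 had a log2 change of -0.08 (adjusted p = 0.426, SE 0.064) in the authors' deposited table, a ratio of 0.944 (0.865 to 1.03). Of the 3 paralogues it was measured with the smallest SE, and its interval leaves room for a fall of at most 0.21 on the log2 scale. Sall3 had a log2 change of -0.69 (SE 0.352, unadjusted p = 0.0510, adjusted p = 0.193) in the authors' deposited table, a ratio of 0.621 (0.385 to 1.002). Its interval runs from a fall larger than that of Sall4 to no change, so the size of a Sall3 change is not settled by these libraries.

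The smallest Wald score among called genes was 2.76, which sets the change each Sall gene needed for a call. Given their SE in the authors' deposited table, a call needed a log2 change of 0.18 for Sall2, 0.27 for Sall1, 0.50 for Sall4 and 0.97 for Sall3, in either direction. A fall of Sall3 as large as that of Sall4 would thus not have been called.

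**Figure D2:**
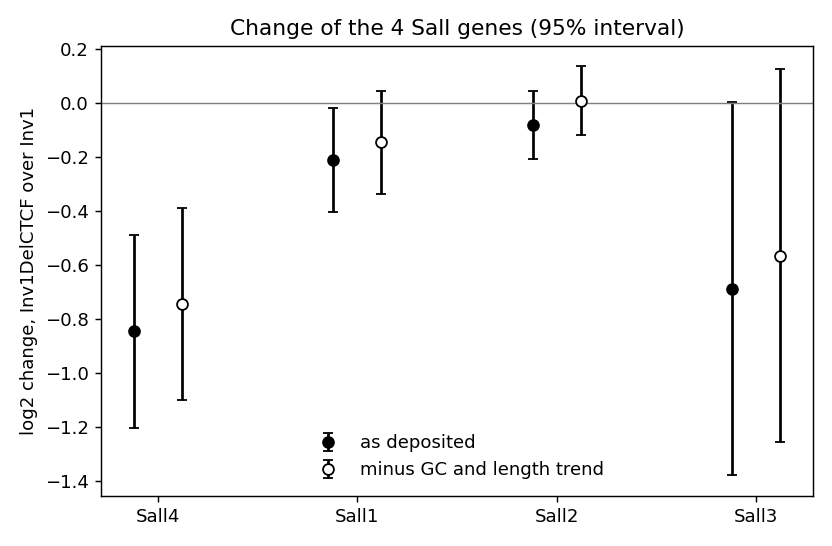
Points give the log2 change of each Sall gene, Inv1DelCTCF over Inv1, as deposited (filled) and after subtraction of a trend in GC content and transcript length (open), with 95% intervals from the SE. The Sall4 intervals lie below 0 on both scales, while the Sall3 intervals are the widest and reach 0.

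Set against its paralogues, Sall4 changed more than Sall1 and Sall2 and could not be separated from Sall3. The Sall4 change minus the Sall1 change, taken from the authors' deposited table, was -0.63 (SE 0.207, 95% interval -1.04 to -0.23). The Sall4 change minus the Sall2 change from the authors' deposited table was -0.76 (SE 0.193, 95% interval -1.14 to -0.38). Against Sall3 the difference from the authors' deposited table was -0.16 (SE 0.397), with an interval of -0.94 to 0.62 that holds 0. Among the paralogues, Sall1 minus Sall2 was -0.13 (interval -0.36 to 0.10), Sall1 minus Sall3 was 0.48 (-0.24 to 1.19) and Sall2 minus Sall3 was 0.60 (-0.10 to 1.31) in the authors' deposited table. These intervals treat the errors of 2 genes in the same libraries as independent, which could not be checked without values per library. After both changes were shrunk toward 0 with a common prior, Sall4 minus Sall1 was -0.32 and its interval held 0.

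The 4 genes also differed in how large their SE was beside that of genes of like abundance. The SE of Sall3 in the authors' deposited table was 4.12 times the running median SE of genes of like abundance, and that of Sall4 was 1.62 times, that of Sall1 1.52 times and that of Sall2 0.929 times. A ratio lower than that of Sall3 was found for 99.7% of genes, one lower than that of Sall4 for 97.9%, than that of Sall1 for 96.9% and than that of Sall2 for 17.7%. Taken at face value, the SE implies a coefficient of variation between libraries, beyond counting error. It is 26.6% for Sall3, 13.2% for Sall4, 7.35% for Sall1 and 4.64% for Sall2. These values come from the authors' fit, and variation between single libraries was not measured here. The deposited values do not show how far the fit drew on other genes for each SE. Sall3 belongs to a small group of genes that stand above the rest in the ratio of SE to running median. In all, 168 of the 11218 genes (1.5%) had an SE over 2 times the running median, a limit chosen after the values were seen. Of these 168 genes 48 had a negative and 120 a positive log2 change, so the negative change of Sall3 is in the minority direction there.

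Of 29 limb patterning regulators with an adjusted p, 3 were in that group. They were Msx1, a homeobox gene of the distal mesenchyme, with a ratio of SE to running median of 3.36, Grem1, a BMP antagonist of the posterior mesenchyme, with 3.71, and Fgf8, a ligand of the apical ridge, with 3.46. In the authors' deposited table their log2 changes were -0.99 (SE 0.421) for Msx1, -0.90 (SE 0.400) for Grem1 and -1.20 (SE 0.609) for Fgf8, and none was called (adjusted p from 0.103 to 0.188). Of all 168 genes in that group only 1 was called lower and 1 higher, since a wide SE raises the change needed for a call. The lack of calls thus goes with how the group was chosen. Of 35 marker genes of tissues with an adjusted p, 6 were in that group, 4 of them with a positive change. Beside Msx1 and Fgf8 they were the muscle factor gene Myog, at 0.56, the cartilage matrix genes Acan, at 1.56, and Col2a1, at 0.25, and the embryonic globin gene Hbb-y, at 0.16 on the log2 scale in the authors' deposited table, none of them called. Which library or libraries set these wide errors was not tested.

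**Figure D3:**
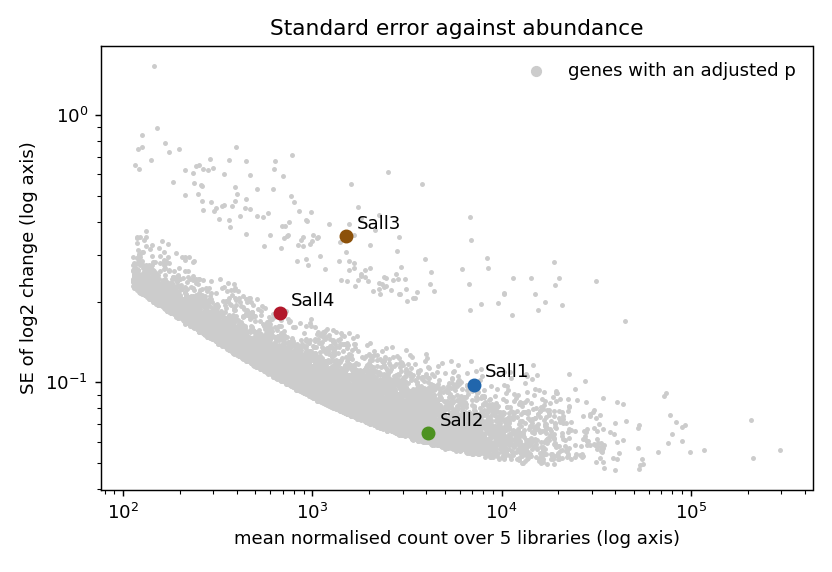
The SE of the log2 change (log axis) is plotted against the mean normalised count over 5 libraries (log axis) for the 11218 genes with an adjusted p (grey) and the 4 Sall genes (coloured). Sall3, at an SE of 0.352, lies in a sparse upper cloud of points, Sall4 and Sall1 lie at the upper side of the main band, and Sall2 lies inside it.

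Base composition moved with the changes across the whole table. Over 10940 genes with a GC content and an adjusted p, the Spearman correlation of GC content (longest transcript) and log2 change was -0.52, given as a description, since all points come from the same 5 libraries. The median log2 change was 0.11 for genes under 42% GC, among 1319 genes, and -0.20 for genes over 58% GC, among 1000 genes. The Sall transcripts had 51.6% (Sall1), 53.2% (Sall2), 53.8% (Sall4) and 54.4% (Sall3) GC, on the side where changes were on average negative. At their GC content and length the fitted trend was -0.07 for Sall1, -0.09 for Sall2, -0.10 for Sall4 and -0.12 for Sall3 on the log2 scale.

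After that trend was subtracted, Sall4 had a log2 change of -0.75 (95% interval -1.10 to -0.39, adjusted p = 0.00408), a ratio of 0.597. On that scale 3.66% of genes were called, 1.65% lower and 2.01% higher, so that 45% of the calls were lower, against 67.5% of the calls in the authors' deposited table. Sall1 stood at -0.15 after the subtraction (adjusted p = 0.472), Sall3 at -0.57 (adjusted p = 0.433) and Sall2 at 0.0082 (adjusted p = 0.971). The sign of Sall2 thus turned. Of 804 other genes within 2 percentage points of the GC content of Sall4 and within 0.5 of its log2 length, 12.2% were called lower in the authors' deposited table and their median log2 change was -0.09. None of the 804 had a more negative log2 change than Sall4. For Sall2 the like group of 810 genes had a median log2 change of -0.08, the same as that of Sall2 to 2 decimals.

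**Figure D4:**
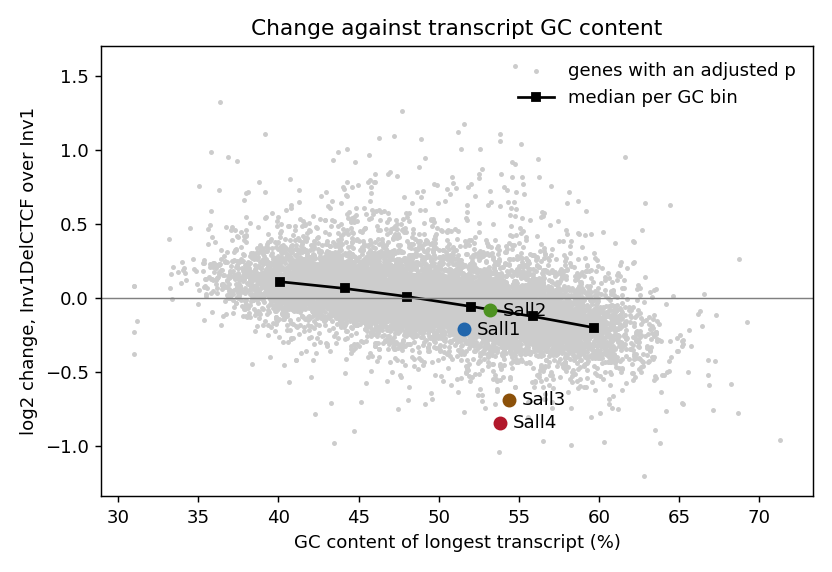
The log2 change, Inv1DelCTCF over Inv1, is plotted against the GC content of the longest transcript in percent for genes with an adjusted p (grey), with the median per GC bin (black squares) and the 4 Sall genes (coloured). Medians run from 0.11 in the lowest bin to -0.20 in the highest, Sall2 lies near the line of medians, and Sall4 and Sall3 lie well below it.

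Regulators of limb patterning fell in part. Of 32 such regulators, all with a row, 29 had an adjusted p, and 11 fell, none rose and 18 did not pass, with a median log2 change of -0.25. That is 37.9% called lower, beside 7.89% of all genes with an adjusted p, whose median was -0.01. Of the 11 that fell, 2 also fell after the trend was subtracted, and the list then held 3 lower calls among 29, beside 1.65% lower over all genes. Etv4, an ETS factor downstream of FGF signalling, fell by 0.61 on the log2 scale (adjusted p = 1.21e-05, SE 0.112) and Etv5, its close relative, by 0.48 (adjusted p = 9.12e-05, SE 0.097) in the authors' deposited table. These were the 2 that also fell after the subtraction. Tbx2, a T-box repressor of the limb margins, had -0.33 and Lmx1b, the dorsal LIM homeobox factor, -0.44 in the authors' deposited table, both called.

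The partners of Sall4 named first above were called neither lower nor higher. Tbx5, the forelimb T-box factor, had 7449 normalised counts in Inv1DelCTCF limbs and 7155 in Inv1 limbs, with a log2 change of 0.06 (adjusted p = 0.675, SE 0.078) in the authors' deposited table. Gli3, the hedgehog effector that acts mainly as a repressor in the limb, had 6737 in Inv1DelCTCF limbs and 7458 in Inv1 limbs, with a log2 change of -0.15 (adjusted p = 0.0618, SE 0.056) in the authors' deposited table. Zbtb16 (Plzf), another zinc finger factor of limb skeletal patterning, fell by 0.56 (adjusted p = 0.0220, SE 0.179) in the authors' deposited table, and had -0.47 (adjusted p = 0.128) after the trend was subtracted. Shh, the posterior signal of the limb bud, had 34.3 normalised counts in Inv1DelCTCF limbs and 136 in Inv1 limbs, with a log2 change of -1.99 (SE 0.738, unadjusted p = 0.00712) in the authors' deposited table, which gives it no adjusted p.

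Some subunits of NuRD were called lower, and most were not called. Of 15 subunit genes 13 had an adjusted p, and 3 fell, none rose and 10 did not pass, with a median log2 change of -0.11. That is 23.1% called lower, beside 7.89% of all genes with an adjusted p. After the subtraction 1 of the 13 was called lower and 1 higher, beside 1.65% lower and 2.01% higher over all genes. Gatad2a, a scaffold subunit, fell by 0.42 (adjusted p = 0.000136, SE 0.085) in the authors' deposited table and was the 1 of these 3 that also fell after the trend was subtracted (adjusted p = 0.0150). Mta1, a subunit that carries the deacetylases, had -0.26 and Mbd3, a methyl-CpG-binding domain protein, had -0.26 in the authors' deposited table. In the authors' deposited table Chd3, a remodelling ATPase, had 0.18 (adjusted p = 0.194), and it was called higher after the subtraction, at 0.33 (adjusted p = 0.0167). Chd4, a related ATPase that nearly every cell uses, is listed at 0, and its level was not analysed here.

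Factors of stem cells and developmental timing, a class to which Sall4 belongs, had 3 called members, and each fell. Of 17 genes on the list 9 had an adjusted p, with 3 lower, none higher and 6 not called, and a median log2 change of -0.18, beside 7.89% called lower and a median of -0.01 over all genes. In rebuilt levels Trim71 had 285 normalised counts in Inv1DelCTCF limbs and 586 in Inv1 limbs. Igf2bp1, an RNA-binding protein of embryonic growth, had 9969 in Inv1DelCTCF limbs and 15006 in Inv1 limbs, and fell by 0.59 (adjusted p = 4.57e-11, SE 0.078) in the authors' deposited table. Mycn, a growth regulator of limb mesenchyme, had 2241 in Inv1DelCTCF limbs and 3399 in Inv1 limbs, and fell by 0.60 (adjusted p = 7.15e-05, SE 0.119) in the authors' deposited table. All 3 also fell after the trend was subtracted, when 1.65% of all genes were called lower.

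The other members of that list were not called, and their changes were not tested against those of the 3 that fell. Hmga2, an architectural chromatin protein of early embryos, had a log2 change of -0.05 (adjusted p = 0.617, SE 0.054) and Igf2bp3 one of 0.02 (adjusted p = 0.874, SE 0.060) in the authors' deposited table. Lin28b, a repressor of let-7 processing, had -0.22 (adjusted p = 0.285, SE 0.131) in the authors' deposited table. Its relative Lin28a had -0.65 (SE 0.294, unadjusted p = 0.0281) in the authors' deposited table, without an adjusted p, at 84.1 normalised counts in Inv1DelCTCF limbs and 132 in Inv1 limbs. The pluripotency factors Pou5f1 and Nanog were near 0, at 2.77 and 2.73 in Inv1DelCTCF limbs and 1.42 and 0.767 in Inv1 limbs, so the Sall4 level here was measured in tissue with almost no RNA of these factors.

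Genes of Wnt signalling, a pathway reported to act on SALL4 in human cells, fell in part as well. Of 18 genes 17 had an adjusted p, and 6 fell, none rose and 11 did not pass, with a median log2 change of -0.20, beside 7.89% called lower and a median of -0.01 over all genes. After the trend was subtracted, 4 of the 6 still fell, beside 1.65% called lower over all genes. Tcf7l1 fell by 0.43 (adjusted p = 4.00e-06, SE 0.075), Lef1 by 0.30 (adjusted p = 0.00128, SE 0.072) and Tcf7 by 0.51 (adjusted p = 0.00412, SE 0.134) in the authors' deposited table, all 3 being DNA-binding factors of the pathway. Axin2, a feedback target, fell by 0.25 (adjusted p = 0.00858, SE 0.069) in the authors' deposited table but had -0.14 (adjusted p = 0.301) after the subtraction. Tcf7l2 did not pass, at -0.12 (adjusted p = 0.460, SE 0.096) in the authors' deposited table.

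**Figure D5:**
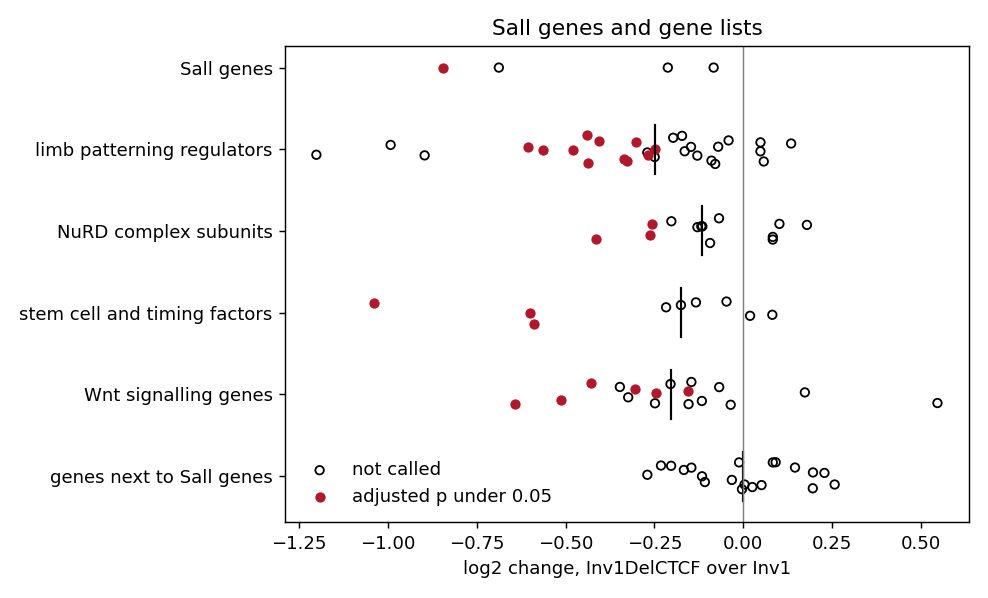
Each point is a gene with an adjusted p, at its log2 change of Inv1DelCTCF over Inv1, for the Sall genes and 5 gene lists, with genes called at an adjusted p under 0.05 filled in red and list medians as vertical ticks. Called points lie left of 0 in 4 of the lists, and among the genes next to the Sall genes none is called.

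Genes beside the Sall genes on their chromosomes were not called. The list took 5 genes on each side of each member in GRCm38 order, 40 in all, of which 10 are listed at 0 and 20 have an adjusted p. None of the 20 was called by the authors' DESeq2 test, beside 11.7% of all genes with an adjusted p. After the trend was subtracted none was called either, beside 3.66% of all genes. Whether 0 calls among 20 genes lies below these shares was not tested. By the same DESeq2 test 4 of the 20 had an unadjusted p under 0.05, and the median log2 change was 0.00035. Beside Sall4 on chromosome 2, the zinc finger gene Zfp64 had a log2 change of -0.20 (adjusted p = 0.187, SE 0.103) in the authors' deposited table, and -0.03 after the subtraction. On its other side the nearest row, Mir7004, is listed at 0, and the next gene, Atp9a, which encodes a phospholipid flippase, had -0.01 (adjusted p = 0.966, SE 0.126) in the authors' deposited table. Beside Sall1 on chromosome 8, Tox3 had 0.08 (SE 0.124) in the authors' deposited table and Mir8110 is listed at 0. Beside Sall2 on chromosome 14, the RNA methyltransferase gene Mettl3 had -0.0033 (SE 0.090) in the authors' deposited table and Olfr1513 is listed at 0. Beside Sall3 on chromosome 18, Atp9b had 0.57 (SE 0.674) at a mean of only 12.8 normalised counts in the authors' deposited table, and Mir5127 is listed at 0.

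With a single comparison no pattern over conditions can be matched. The 3 genes nearest to Sall4 in log2 mean and log2 change together, over this 1 comparison of 5 libraries, were Grem1 (distance 0.181), Rnaseh2c (0.237) and Mif (0.256). In the authors' deposited table Rnaseh2c fell by 0.64 (adjusted p = 0.00891, SE 0.181) and Mif by 0.89 (adjusted p = 0.000252, SE 0.190), while Grem1 was not called.

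Marker genes matched the labelled tissue. All 8 markers of limb mesenchyme were detected, with summed rebuilt levels of 64353 normalised counts in Inv1DelCTCF limbs and 64325 in Inv1 limbs. Prrx1, at 26274 in Inv1DelCTCF limbs and 25638 in Inv1 limbs, and Hoxd13, at 19634 and 18981, made up most of these sums. One of the 8, Hoxa13, was called lower but not after the trend was subtracted (adjusted p = 0.208). By the authors' DESeq2 test 3 of the 8, Msx1, Prrx2 and Hoxa13, were lower at an unadjusted p under 0.05, and none was higher. Pitx1 and Tbx4, which mark the hindlimb, summed to 612 in Inv1DelCTCF limbs and 694 in Inv1 limbs. Nearly all of this was Tbx4, at 603 in Inv1DelCTCF limbs and 669 in Inv1 limbs. Pitx1 had 9.54 in Inv1DelCTCF limbs and 25.6 in Inv1 limbs. The forelimb factor Tbx5 had 7449 in Inv1DelCTCF limbs and 7155 in Inv1 limbs. Of 7 markers of surface ectoderm 3 were called lower, beside 7.89% of all genes, with sums of 9464 in Inv1DelCTCF limbs and 11412 in Inv1 limbs. None of these 3, Krt5, Krt18 and Cdh1, was called after the subtraction (adjusted p from 0.0528 to 0.238). No marker of muscle precursors or cartilage was called by the authors' DESeq2 test (1 of cartilage, Acan, had an unadjusted p under 0.05), and their sums were 2704 and 29193 in Inv1DelCTCF limbs, against 2149 and 25601 in Inv1 limbs. The largest parts of these sums were Myog, at 1518 in Inv1DelCTCF limbs and 1033 in Inv1 limbs, and Col2a1, at 22267 and 18781. Myog, Myod1, Col2a1 and Acan had positive log2 changes, and Pax3, Myf5, Lbx1 and Sox9 had negative ones. Of 4 endothelial markers 1, Cdh5, was called lower, but not after the subtraction (adjusted p = 0.229), with sums of 6026 in Inv1DelCTCF limbs and 6676 in Inv1 limbs. Of 5 blood markers 2, Hba-x and Hbb-bh1, were called lower, before and after the subtraction, with sums of 80773 in Inv1DelCTCF limbs and 85977 in Inv1 limbs and Hba-a1 listed at 0. Markers of macrophages summed to 1015 in Inv1DelCTCF limbs and 829 in Inv1 limbs, and those of neural crest and Schwann cells to 397 in Inv1DelCTCF limbs and 277 in Inv1 limbs, with none called by that test and 1 of each at an unadjusted p under 0.05. The macrophage marker among them, Csf1r, was called higher after the subtraction, at 0.53 (adjusted p = 0.0392). The part of these differences in the Sall4 change was not tested, since the files hold no values per library.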

How the data were processed

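RNA of 2 Inv1DelCTCF and 3 Inv1 forelimb libraries was compared, among 23 libraries in 7 groups. Per the submitters' processing notes the tools were STAR and DESeq2 and the build was mm9, without versions. Per the file headers the authors deposited a mean normalised count (a signal pooled over libraries), a Wald score, the p-value and its adjusted form, and the log2 fold change with its SE. Adjusted p is absent below a mean of 113. No values per library were used, so no library could be left out.

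The headers do not name the numerator. Group means of 49 genes rebuilt from the tables against wild type differed by a median of 0.0124 (log2) when positive means higher in Inv1, against 0.107 or more under the other conventions, and the sign was turned. Intervals are 95% (1.96 SE). Transcript length and GC content were read from each gene's longest GENCODE M21 transcript (GRCm38) and were found for 97.5% of tested and 97.3% of called genes. The trend was fitted by least squares weighted by 1/SE squared, with terms up to the power 3 in GC content and log2 length and their product, and p-values were adjusted by Benjamini-Hochberg. The trend fit was tested on simulated data that held a trend of the same form. That test does not show how well this form describes the libraries used here.

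Named genes were the Sall genes, up to 4 called genes per list with the smallest adjusted p, the nearest row on each side of each member and 3 genes most like Sall4. Other genes were named as known partners or as exceptions, after their values were seen. Members, lists and tests were chosen with earlier results of these data known. Alternatives covered thresholds, adjustment, centring, the trend, a minimum change, shrinkage and the transcript length. The work used SciPy 1.17.1, numpy 2.4.6 and pandas 2.3.3 under Python 3.11.15, with matplotlib 3.10.9 for plots.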

Additional observations from a re-analysis of the deposited data

How the results depend on the processing

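Sall4 was called lower under all 8 alternatives, with log2 changes from -0.85 to -0.49 and adjusted p from 0.000299 to 0.0124. Sall1, Sall2 and Sall3 were called under none of them (lowest adjusted p 0.142, 0.426 and 0.193). Some of these outcomes were fixed in advance. A looser threshold could not undo the Sall4 call. The 0.01 threshold and the minimum change of 1.5-fold could not either, given its deposited adjusted p of 0.000299 and ratio of 0.557. A stricter threshold or a minimum change could not add a call of Sall1, Sall2 or Sall3. Sall2 turned to 0.0082 on the log2 scale with the GC and length trend subtracted. The Sall4 change minus the Sall1 change was -0.32 with shrunk changes, where its interval held 0. Called limb patterning regulators numbered 4 at an adjusted p under 0.01 and 3 after the trend was subtracted, against 11. Over all genes 400 of 10940 were called after that subtraction, against 1312 of 11218 as deposited. Called NuRD subunits numbered 1 at 0.01 and 5 at 0.1, against 3. The shares of all genes called at 0.01 and at 0.1 were not computed, so the counts at these thresholds have no background beside them. Per kb of coding sequence the levels in Inv1 limbs were 255 for Sall4, 1905 for Sall1, 1396 for Sall2 and 476 for Sall3, and Sall4 stood at 1056 per kb of the median transcript. The change in levels follows from the lengths used, and the cause of the other differences was not tested. No paired analysis was possible because the files hold no values per library, and for the same reason leaving out single libraries was not run. Depth of single libraries is unknown.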
